A study of Mus musculus with 157 samples.

Results

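The monosome fractions of B cells treated with etoposide were compared with those of B cells that received lipopolysaccharide (LPS) alone. The members are all libraries of gradient fractions 4 to 7 from these treatments, 32 of the 157 libraries in the series. Both groups were primary splenic B cells of C57BL/6Babr mice aged 8 to 12 weeks per the methods, purified with an isolation kit and activated with LPS at 10 µg/ml for 48 h. The LPS+ET group then received etoposide at 20 µM for 4 h, and the labels name no vehicle for the LPS group and do not say whether it was cultured for those further hours. All cells were given cycloheximide at 100 µg/ml for 3 min to hold ribosomes on mRNA, and cytoplasmic extracts were separated on sucrose gradients. Each treatment had 4 gradients. A gradient of each treatment carried the same tag in the deposited table, LUL15, LUL16, LUL17 or LUL18, and gradients with the same tag were compared as a pair. The study describes its libraries as coming from 4 biological replicates, but the labels do not say how many mice gave the cells of a gradient. The p-values below measure only the spread between these gradients.

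Etoposide is a topoisomerase II poison used in chemotherapy, and the enzyme held on DNA leaves both strands cut. The ATM kinase answers such breaks and stabilizes p53, a transcription factor that induces cell cycle inhibitors, pro-apoptotic genes and its own antagonist Mdm2. Monosomes hold mRNAs with a single ribosome, either newly initiated, poorly translated or short, whereas mRNAs under strong translation carry several ribosomes and sediment as polysomes. The monosome level of an mRNA therefore moves both with its abundance in the cytoplasm and with its distribution along the gradient.

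The libraries counted the 3′ ends of mRNAs, and a level below is the mean CPM (counts scaled to a fixed library total) of a gene over fractions 4 to 7 of a gradient. Each library was made from the same concentration of RNA, so CPM gives the share of a gene among the mRNAs of a fraction and not the amount of mRNA in it. The 32 libraries held 14724 to 1219242 counts (median 440575). Those of fraction 4 were the shallowest with 14724 to 419646 (median 58826). A gradient had 1397768 to 2850390 counts over its 4 fractions, and the LPS+ET gradient had the lower sum in 4 of 4 pairs (exact two-sided permutation test over 70 splits, p = 0.0571, smallest possible p 0.0286; 0.13 by exact sign flips of the 4 pairs, the smallest they can give). The LPS+ET gradient of tag LUL16 stood apart. Mitochondrially encoded mRNAs gave 2.65% of its level, against 7.21% to 10.5% in the other LPS+ET gradients and 9.29% to 12.09% in the LPS gradients. Its Aldoa level, a glycolytic enzyme, was 3778 CPM against 1039 to 1475 CPM in the other 3. The 7 B cell markers summed to 1498 to 2254 CPM in LPS and 840 to 1463 CPM in LPS+ET, and 3 of the 6 that passed the filter on low counts fell, among them Cd22 and Blk. The 9 T cell markers in the table summed to 125 to 141 CPM in LPS and 72.6 to 187 CPM in LPS+ET, and only Lck of them passed the filter. The 11 myeloid markers in the table summed to 77.7 to 155 CPM and 82.7 to 161 CPM in the same groups, and none of the 4 tested was called. Markers of NK cells and of erythroid cells and platelets stayed at or under 3.60 CPM in every gradient. A smaller share of a cell type and less of its mRNA per cell cannot be told apart in these libraries.

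**Figure D1:**
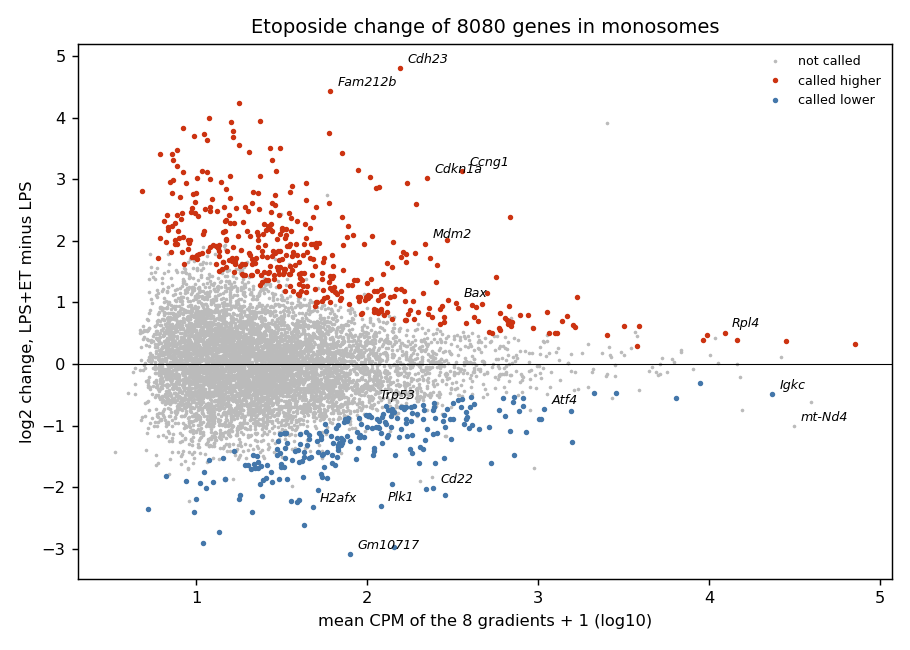
Change of each of the 8080 tested genes in monosomes. The x axis is the mean CPM of the 8 gradients plus 1 on a log10 scale, and the y axis is the log2 change of LPS+ET against LPS. Red points are the 418 genes called higher, blue points the 235 called lower and grey points are not called.

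Of 19600 genes in the table, 8080 had at least 10 counts in at least 4 of the 8 gradients. On the log2(CPM + 1) scale, limma with the tag as a block called 653 of them at an adjusted p under 0.01, which is 8.08% of the genes tested. Of these, 418 were higher in LPS+ET (5.17%) and 235 were lower (2.91%), and these shares stand beside each count of rises and falls over a list of genes. The change had the same direction in all 4 pairs for 652 of the 653 genes. The 2 groups of gradients did not overlap for 522 of them, while 15.1% of all tested genes had groups that did not overlap. The median absolute log2 change of the called genes was 1.49, and the median signed change of all tested genes was 0.01. For 68 called genes no gradient of one group reached 10 counts, so they entered the test through the other group alone and had to differ. The genes named below of which this holds are Fam212b, A930001C03Rik, Enc1, Mab21l2, 1700003M07Rik, Csrnp2, Slc4a11, Sdc1, Fos, Nr4a3 and the uncalled Plk2 through LPS+ET, and Pif1 through LPS, and their calls and directions are given as a description. Counts summed over the 4 fractions and tested with edgeR gave 2092 calls of 7813 (26.8%) with the tag as a block and 847 (10.8%) without it, and 639 of the 653 genes were called by edgeR with the block in the same direction. When CPM was computed from the summed counts, 46.9% of the called genes were higher, against 64.0% when each fraction was weighted equally. Without tag LUL15 limma called 210 genes, without LUL16 406 and without LUL17 431. Of the genes named below 98 were called, and 54 of these were also called with each tag left out in turn. The 54 include genes that entered the test through LPS+ET alone.

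Of 14 p53 targets that slow growth 11 passed the filter, of which 7 rose, none fell and 4 were not called. The median value of the 11 was 1.79, beside 0.01 for all tested genes. Cdkn1a, which encodes the inhibitor p21 of cyclin-dependent kinases (ENSMUSG00000023067, GRCm38 chr17:29090979-29100722), was at 65.4, 22, 32 and 106 CPM in the LPS gradients of tags LUL15 to LUL18 and at 424, 394, 316 and 431 CPM in LPS+ET. All 4 LPS+ET gradients were above all LPS gradients, and the log2 change was 3.02 ± 0.27 (SE, n = 4 pairs, limma adjusted p = 5.3e-05). Part of the LPS level came from fraction 4, where Cdkn1a had 25 counts in the 4 LPS libraries together, and the change was 3.67 without that fraction. Ccng1, cyclin G1 (chr11:40748552-40755311), moved from 86.2, 55.0, 47.0 and 110 CPM to 882, 629, 556 and 489 CPM, a change of 3.13 ± 0.21 (SE, limma adjusted p = 4.9e-06). Its lowest LPS+ET gradient held more than 4 times the CPM of the highest LPS gradient. Zmat3, an RNA-binding zinc finger protein, rose by 3.03 ± 0.25. Gtse1, a G2 phase protein that binds p53, rose by 2.27 ± 0.34. The stress-induced inhibitors of mTORC1 signalling Sesn2 and Ddit4 rose by 2.25 ± 0.20 and 1.79 ± 0.19. Plk2, a polo-like kinase induced by p53, had a value of 1.19 ± 0.47 and was not called, and without fraction 4 its value was 2.60 and was called.

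Of 15 listed genes that promote apoptosis downstream of p53, 14 were in the table and 10 passed the filter, of which 7 rose, 1 fell and 2 were not called (median 2.29). Pmaip1, which encodes the BH3-only protein Noxa, went from 48.7, 44.2, 65.5 and 57.7 CPM to 393, 291, 373 and 270 CPM. The groups lay far apart, and the change was 2.59 ± 0.17 (SE, limma adjusted p = 3.6e-06). Bbc3, encoding Puma, another BH3-only protein, rose by 2.59 ± 0.31. The death receptors Fas and Tnfrsf10b rose by 2.20 ± 0.34 and 2.75 ± 0.43, and Trp53inp1, a nuclear protein that binds p53, by 2.39 ± 0.24. Dcxr, which stands in this list although it encodes a carbonyl reductase, rose by 2.87 ± 0.20. Bax, the pore-forming effector, was named after its values were seen. It stood at 194 to 234 CPM in LPS and 408 to 499 CPM in LPS+ET, a change of 1.00 ± 0.12 (limma adjusted p = 0.00017). Bid, the member that fell, encodes a BH3-only protein cleaved by caspase 8 and was also named after its values were seen. It was at 46.0, 43.6, 20.6 and 21.7 CPM in LPS and at 12.8, 8.89, 7.91 and 6.85 CPM in LPS+ET, with a change of -1.69 ± 0.31 (limma adjusted p = 0.0027). The calls of Bid and Tnfrsf10b were lost in at least 1 of the fits without a tag.

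The regulators of p53 itself showed a mixed pattern. Of 9 tested genes 2 rose and none fell. Mdm2, the ubiquitin ligase that degrades p53, had 77.0, 77.3, 79.1 and 120 CPM in LPS and 480, 298, 297 and 307 CPM in LPS+ET. Its change was 1.95 ± 0.19 (SE, limma adjusted p = 4.4e-05). Mdm4, a related inhibitor of p53, rose by 1.78 ± 0.23. Trp53, the p53 mRNA (ENSMUSG00000059552, chr11:69580359-69591873), was at 121, 161, 106 and 124 CPM in LPS and at 69.5, 128, 48.6 and 94.2 CPM in LPS+ET. It was lower in each of the 4 pairs, but the groups overlapped, and its value of -0.66 ± 0.18 did not pass the threshold (limma adjusted p = 0.026). Without fraction 4, where the 4 LPS libraries held 76 counts of Trp53, the value was -0.32. The phosphatase Ppm1d had a value of 1.25 ± 0.42 that was not called, and 2.49 without fraction 4, which was.

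Targets of p53 in repair, redox control and metabolism formed the last of these lists, with 7 of 11 tested genes higher and none lower (median 1.70). Phlda3, which holds the kinase Akt off membranes, had 11.3, 6.60, 33.5 and 20.5 CPM in LPS and 280, 142, 98.2 and 107 CPM in LPS+ET. The change was 3.15 ± 0.46, and 4.30 without fraction 4. The lipase Abhd4 rose by 2.85 ± 0.21, the epoxide hydrolase Ephx1 by 2.20 ± 0.34 and the mitochondrial dehydrogenase Aldh4a1 by 2.16 ± 0.30. Polk, a translesion DNA polymerase, and Tmem19 rose by 1.71 ± 0.36 and 1.70 ± 0.34. Rps27l is given with the ribosomal proteins. The calls of Polk, Tmem19, Ephx1 and Phlda3 were lost in at least 1 of the fits without a tag.

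**Figure D2:**
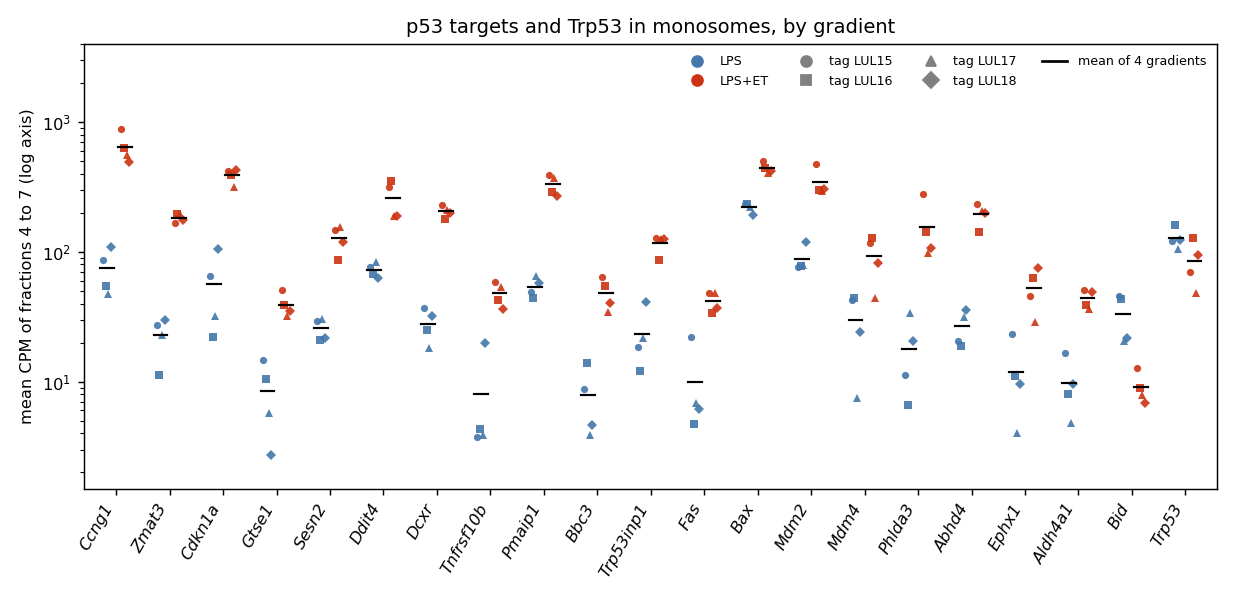
Level of p53 targets and of Trp53 in the monosomes of each gradient, in mean CPM of fractions 4 to 7 on a log axis. Each symbol is a gradient, with its shape giving the tag, and bars are the mean of 4 gradients. The LPS+ET symbols of Ccng1, Zmat3, Cdkn1a and Mdm2 lie above all LPS symbols, those of Bid below, and those of Trp53 overlap.

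The largest rises, named among genes also called by edgeR, with 1 direction in 4 of 4 pairs and a mean of at least 20 CPM in the higher group, included those of Cdh23, Fam212b, A930001C03Rik, Enc1, Mab21l2, 1700003M07Rik, 2410089E03Rik, Csrnp2 and Slc4a11. Their changes ran from 3.64 to 4.80. Of these genes Cdh23 and 2410089E03Rik alone passed the filter through both groups. Cdh23, a cadherin known from hair cells of the inner ear, was at 4.66, 2.66, 9.17 and 42.0 CPM in LPS and at 242, 157, 289 and 486 CPM in LPS+ET. Its change was 4.80 ± 0.30 (SE, limma adjusted p = 3.6e-06). Its most used 3′ end lies in an intron of the annotated gene, 68967 bases from the nearest annotated transcript end, so the counts need not come from the full-length mRNA. Fam212b rose by 4.43 ± 0.46, from 1.52 to 18.2 CPM in LPS to 93.6 to 136 CPM in LPS+ET. Slc4a11, a membrane transporter, had 6 counts in all LPS gradients together and 132 in LPS+ET, a ratio of 30.4 per count sequenced (95% exact interval 13.6 to 84.3, for counting error only). As it passed the filter through LPS+ET alone, this ratio is a description. A930001C03Rik and 1700003M07Rik are non-coding, and they moved from at most 1.08 and 1.18 CPM in the LPS gradients to 24.5 to 43.5 CPM and 9.29 to 45.6 CPM. Enc1, an actin-binding protein, went from 1.33 to 2.25 CPM to 32.8 to 65.1 CPM.

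Many genes of mitosis fell. Of 40 listed genes 34 passed the filter, of which 12 fell, none rose and 22 were not called, while 2.91% of all tested genes fell. The median change of the 34 was -0.76, and 30 of them had negative values. Plk1, the kinase that drives entry into mitosis, was at 215, 237, 164 and 172 CPM in LPS and at 55.0, 44.5, 22.2 and 40.6 CPM in LPS+ET. The lowest LPS gradient stood well above the highest LPS+ET gradient, and the change was -2.31 ± 0.19 (SE, limma adjusted p = 1.5e-05). Ccnb1, cyclin B1, had 82.7, 57.5, 69.6 and 47.5 CPM in LPS and 23.4, 8.21, 10.9 and 13.0 CPM in LPS+ET, a change of -2.20 ± 0.27. Cenpa, the histone variant of centromeres, had 376 to 477 CPM in LPS and 130 to 167 CPM in LPS+ET, a change of -1.52 ± 0.14. The helicase Pif1 fell by 2.19 ± 0.46 on the log2 scale, the spindle protein Prc1 by 1.74 ± 0.30 and the phosphatase Cdkn3 by 1.68 ± 0.32. Pif1 passed the filter through LPS alone and had to differ, so its call is a description. The calls of Pif1, Prc1 and Cdkn3 were lost in at least 1 of the fits without a tag. Birc5, encoding survivin, had a value of -0.55 ± 0.15 that was not called, although its groups did not overlap.

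Promoters of cell cycle genes are known for 2 elements, the CHR (TTTGAA) and the CCAAT box, through which the DREAM complex and NF-Y act. The 4 mitosis genes with the largest falls and an entry in the RefSeq promoter table (GRCm38.p6) are shown because their mRNAs moved together. Each sequence runs from 150 bases before the annotated gene start to 50 after it, 5′ to 3′ on the gene's strand, with capitals for TTTGAA or CCAAT on either strand.
Plk1, chr7:122159285-122159484, plus strand: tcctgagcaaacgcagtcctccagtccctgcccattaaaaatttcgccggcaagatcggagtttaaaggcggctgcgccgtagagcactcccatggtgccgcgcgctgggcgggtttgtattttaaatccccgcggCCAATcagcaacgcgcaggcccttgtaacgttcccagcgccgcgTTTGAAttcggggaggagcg
Ccnb1, chr13:100786437-100786636, minus strand: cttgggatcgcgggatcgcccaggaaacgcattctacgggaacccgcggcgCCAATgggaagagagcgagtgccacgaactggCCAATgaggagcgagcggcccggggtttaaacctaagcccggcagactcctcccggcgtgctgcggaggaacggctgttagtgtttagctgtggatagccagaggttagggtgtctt
Prc1, chr7:80294301-80294500, plus strand: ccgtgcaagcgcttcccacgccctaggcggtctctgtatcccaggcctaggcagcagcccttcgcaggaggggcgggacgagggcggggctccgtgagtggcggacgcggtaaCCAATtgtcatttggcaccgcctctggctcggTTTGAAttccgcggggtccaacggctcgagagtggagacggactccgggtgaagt
Cdkn3, chr14:46760391-46760590, plus strand: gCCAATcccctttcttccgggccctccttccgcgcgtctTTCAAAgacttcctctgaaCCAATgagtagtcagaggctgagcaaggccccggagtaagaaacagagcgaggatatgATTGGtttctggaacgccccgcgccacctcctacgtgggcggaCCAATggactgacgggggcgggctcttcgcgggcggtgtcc
In the full 300 bases of the table, Plk1, Prc1 and Cdkn3 held a CHR match and Ccnb1 held none, and each of the 4 held a CCAAT match. A table entry was found for 10 of the 12 mitosis genes that fell, of which 9 held TTTGAA and 10 held CCAAT on either strand. Of the 19 uncalled mitosis genes with an entry, 12 and 15 did. Over all 27025 promoters the shares were 18.1% and 37.9%, and over those of all tested genes they were 11.7% and 39.5%. Among all genes called lower 20.6% held TTTGAA, and among all genes called higher 12.5% did. A match of letters is a description and does not show a bound site.

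Of 34 tested S phase genes 1 rose and 2 fell, a share near the 8.08% of all tested genes that were called. Rrm2, the small subunit of ribonucleotide reductase, rose from 154, 99.2, 76.8 and 43.6 CPM to 242, 212, 204 and 146 CPM, a change of 1.21 ± 0.19, although the groups overlapped. Ccne1, cyclin E1, fell by 1.12 ± 0.25 on the log2 scale. Tk1, thymidine kinase, had 76 counts in the LPS gradients and 10 in LPS+ET and fell to a ratio of 0.182 per count sequenced (95% exact interval 0.0838 to 0.353), its most used 3′ end lying in an intron. Mcm7, a subunit of the replicative helicase, had a value of 0.29 ± 0.11 and was not called. In the list of damage kinases and break repair, 2 of 19 tested genes fell and none rose, likewise near 8.08%, and edgeR with the block called 2 higher and 2 lower. H2afx, which encodes the histone phosphorylated around breaks, was at 68.0, 51.9, 96.1 and 99.7 CPM in LPS and at 9.89, 10.0, 19.7 and 21.8 CPM in LPS+ET, a change of -2.32 ± 0.24 (SE, limma adjusted p = 5.6e-05). Of 15 tested histone genes 3 fell, H2afx, Hist3h2a and Hist1h4i, and 1 rose, the variant H2afj at 1.57 ± 0.21.

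Of 18 tested B cell and plasma cell regulators 5 fell, 1 rose and 12 were not called. Cd22, an inhibitory co-receptor, was at 444, 421, 355 and 314 CPM in LPS and at 85.8, 181, 63.5 and 77.7 CPM in LPS+ET, a change of -2.01 ± 0.19 (SE, limma adjusted p = 4.5e-05). Irf8, a transcription factor of germinal centre B cells, fell by 1.6 ± 0.15 on the log2 scale. Fcer2a, the IgE receptor CD23, fell by 1.88 ± 0.30 on the same scale. Sdc1, which encodes CD138, had 0.571 to 1.58 CPM in LPS, from 13 counts in all, and 9.11 to 35.6 CPM in LPS+ET, a change of 3.14 ± 0.39. This member, the 1 that rose, passed the filter through LPS+ET alone and had to differ, so its call is a description. Among the uncalled members, named after their values were seen, Prdm1, a transcription factor of plasma cells, had a value of -0.66 ± 0.26 and Bach2, which represses Prdm1, one of 0.74 ± 0.17 (limma adjusted p = 0.098 and 0.011). Of 6 tested immunoglobulin genes 4 fell and none rose. Igkc, the kappa constant region, was at 19458, 21024, 33263 and 34252 CPM in LPS and at 12491, 13703, 31004 and 22891 CPM in LPS+ET. It was lower in each pair while the groups overlapped, with a change of -0.48 ± 0.08 (limma adjusted p = 0.0017). Its share of the CPM went from 2.70% ± 0.784 (SD, n = 4) to 2.00% ± 0.867, and with the gradients taken as unpaired this did not pass (exact permutation p = 0.286, and 0.13 by exact sign flips of the 4 pairs, the smallest they can give). Iglc2 fell by 0.89 ± 0.19 on the log2 scale, Ighg3 by 1.21 ± 0.23 and Ighg2b by 1.63 ± 0.31. Each of the 4 immunoglobulin calls was lost in at least 1 of the fits without a tag. Ighm, the mu heavy chain, had a value of -0.41 ± 0.10 and was not called.

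Of 19 tested immediate early genes, which signalling induces without new protein synthesis, 8 rose and 2 fell. Among the 8 are Fos and Nr4a3. Both passed the filter through LPS+ET alone and had to differ, so their calls are a description. Fos had 2 counts in the LPS gradients together and 75 in LPS+ET, a ratio of 51.8 per count sequenced. The 95% exact interval of 13.9 to 436 covers counting error only. Fos passed the filter through LPS+ET alone, so its ratio is a description. Its AP-1 partner Jun went from 13.3, 17.9, 14.5 and 29.8 CPM to 65.1, 66.8, 70.5 and 88.7 CPM, a change of 1.95 ± 0.24. Ier5 rose by 2.01 ± 0.14, and the orphan nuclear receptors Nr4a1 and Nr4a3 rose by 1.80 ± 0.17 and 2.76 ± 0.39. Klf2, a factor of lymphocyte quiescence, fell by 2.02 ± 0.22 on the log2 scale. Of 18 tested NF-kB pathway genes 1 rose and 2 fell. Nfkbid, an atypical nuclear IkB protein, rose by 0.94 ± 0.17, while Cd83, an activation marker, fell by 1.16 ± 0.15 and Bcl3 by 0.68 ± 0.16. Of 27 tested interferon response genes only Igtp, a GTPase, was called, higher at 1.37 ± 0.21. In edgeR with the block 1 gene of that list was higher and 11 were lower, beside 14.9% and 11.9% of all genes that edgeR tested.

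Genes of the ATF4 programme did not move one way. ATF4 is the transcription factor made under amino acid and ER stress from an mRNA with upstream open reading frames. Of 18 tested genes of this list 3 rose and 3 fell. Atf4 itself was at 1204, 1446, 1352 and 1423 CPM in LPS and at 746, 943, 739 and 847 CPM in LPS+ET. The groups did not overlap, and the change was -0.73 ± 0.09 (SE, limma adjusted p = 0.00018). Chac1, a glutathione-degrading enzyme, and the amino acid transporter Slc7a5 fell by 2.14 ± 0.36 and 0.89 ± 0.17 on the log2 scale. Ppp1r15a, which directs dephosphorylation of eIF2α, and the transcription factor Cebpb rose by 1.26 ± 0.27 and 1.43 ± 0.22, and Sesn2 is described above. Among 20 tested genes of the unfolded protein response 4 fell and none rose. Manf, a secreted ER stress protein, went from 1232, 1533, 1479 and 1191 CPM to 626, 678, 893 and 727 CPM, a change of -0.90 ± 0.10. Herpud1 and Syvn1, which act in ER-associated degradation, fell by 1.05 ± 0.12 and 1.19 ± 0.21 on the log2 scale, and the disulfide isomerase Pdia6 fell by 0.78 ± 0.16.

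Some genes of cholesterol supply fell, with 5 of 17 tested lower, none higher and a median of -0.87. Sqle, squalene epoxidase, had 91.7, 71.3, 87.5 and 74.9 CPM in LPS and 13.8, 21, 29.5 and 15.0 CPM in LPS+ET, a change of -2.04 ± 0.25 (SE, limma adjusted p = 0.00018). Hmgcs1, an early enzyme of sterol synthesis, fell by 1.5 ± 0.23 on the log2 scale, Sc4mol by 1.12 ± 0.22 and Srebf2, the transcription factor of this pathway, by 1.01 ± 0.17. Of 13 tested genes of Hif1a and glycolysis 2 rose, both with their highest value in the LPS+ET gradient of tag LUL16. Ldha, lactate dehydrogenase A, was at 132, 330, 134 and 133 CPM in LPS+ET and at 37.2 to 76.7 CPM in LPS. Its change was 1.46 ± 0.22, and 1.24 without tag LUL16. Aldoa had a change of 0.78 ± 0.16, and its call was lost without fraction 4. Hif1a, the hypoxia-induced transcription factor, had 160, 81.9, 82.1 and 66.6 CPM in LPS and 252, 103, 160 and 110 CPM in LPS+ET. It was higher in each pair, with a value of 0.66 ± 0.17 that did not pass (limma adjusted p = 0.016). It passed without fraction 4, at 0.72.

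Ribosomal protein mRNAs made up 13.9% to 17.3% of the monosome level in LPS and 17.4% to 19.3% in LPS+ET. Within this sum the mean of Rps20 was 63916 CPM in LPS and 79880 CPM in LPS+ET, while the median member had a value of 0.05. These mRNAs are short, are abundant and begin with a terminal oligopyrimidine motif through which mTORC1 controls their translation. Of 66 tested 5 rose, none fell and 61 were not called, a share near the 5.17% of all tested genes that rose. Rpl4 was at 11467, 12364, 8295 and 8162 CPM in LPS and at 17232, 19802, 10928 and 10535 CPM in LPS+ET, higher in each pair with a change of 0.51 ± 0.06 (SE, limma adjusted p = 0.00015). Rpl22 rose by 0.63 ± 0.07, Rps3 by 0.39 ± 0.06 and Rps20 by 0.33 ± 0.04. Rps27l, a paralogue induced by p53, rose by 1.04 ± 0.14. Of 15 other mRNAs of this type 1 rose, the elongation factor Eef2 at 0.47 ± 0.09, and of 6 tested snoRNA host RNAs none was called, among them Gas5 at -0.19 ± 0.07 (edgeR called 1 of the 6, lower). Of 36 tested proteasome subunits 3 were called, a share near 8.08%, and the median value was 0.04. Psmd4 rose by 0.89 ± 0.13 and Psmc3 by 0.65 ± 0.13, and the inducible subunit Psmb8 fell by 0.56 ± 0.10 on the log2 scale.

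Of 7 mitochondrially encoded mRNAs limma called only mt-Co1, which rose by 0.68 ± 0.13, and the 6 others had negative values. In edgeR with the block 2 were higher and 3 lower, and mt-Nd6 was among the higher, with a value of 0.79 (adjusted p = 0.0015). The limma call of mt-Co1 was lost in at least 1 of the fits without a tag. The most used 3′ ends of mt-Co1 and mt-Nd6 lie in coding exons, 833 and 196 bases from the nearest annotated transcript end. mt-Nd4 was at 37636, 46900, 33340 and 42163 CPM in LPS and at 27211, 7645, 22648 and 32241 CPM in LPS+ET. The groups did not overlap, but the value of -1.01 ± 0.52 was not called (limma adjusted p = 0.31), and the gradient of tag LUL16 was the lowest. mt-Cytb and mt-Nd1 had values of -0.75 ± 0.51 and -0.62 ± 0.33.

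The largest falls by the same rule as for the rises included those of Gm10717, Gm21738, Bcar3, Srpk3, Adap1, H2afx, Plk1, Ccnb1 and Gm11998. Srpk3, a kinase of SR splicing factors, had 93.4, 95.9, 37.3 and 55.9 CPM in LPS and 4.43, 28.7, 7.16 and 9.79 CPM in LPS+ET, a change of -2.61 ± 0.36. Bcar3, an adaptor protein, and Adap1 fell by 2.72 ± 0.43 and 2.40 ± 0.43 on the log2 scale, and the antisense RNA Gm11998 by 2.18 ± 0.35. The calls of Bcar3, Adap1 and Gm11998 were lost in at least 1 of the fits without a tag, and that of Srpk3 was not. The values of the predicted genes Gm10717 and Gm21738, -3.09 ± 0.59 and -2.97 ± 0.52, came almost wholly from fraction 4. Without that fraction they were -0.35 and -0.60 and were not called. Of the 31-base words in their annotated transcripts, 54.7% and 43.6% also occur in other genes, so their counts could belong to near-identical copies.

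**Figure D3:**
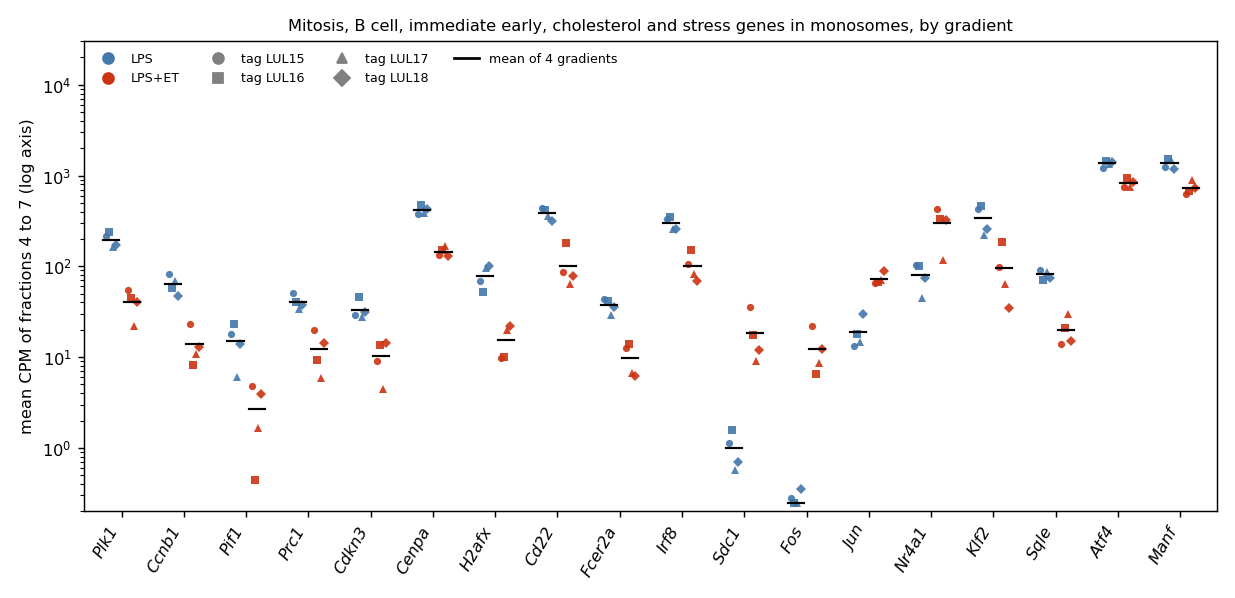
Level of genes of mitosis, B cell identity, immediate early response, cholesterol supply and stress in the monosomes of each gradient, in mean CPM of fractions 4 to 7 on a log axis. Each symbol is a gradient, bars are the mean of 4 gradients, and values under 0.25 are drawn at 0.25. LPS+ET symbols lie below LPS symbols for Plk1, Cd22, Sqle and Atf4 and above them for Sdc1, Fos, Jun and Nr4a1.

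The change was seen in the individual fractions as far as their depth allowed. Tested alone with edgeR, fraction 4 gave 28 calls of 566 genes (4.95%), fraction 5 gave 548 of 3472 (15.8%), fraction 6 gave 1093 of 5921 (18.5%) and fraction 7 gave 825 of 3857 (21.4%). Of the 653 genes called over the class, 128 could be tested in fraction 4, and 125 of them had the same sign there. In fractions 5, 6 and 7 the same held for 438 of 444, 566 of 567 and 460 of 468. These are the same libraries that made the call, so this is a description. Cdkn1a rose in each fraction, by 2.60 ± 0.44, 3.83 ± 0.25, 4.14 ± 0.20 and 3.43 ± 0.20 from fraction 4 to 7. Manf fell by 0.65 ± 0.17, 0.84 ± 0.15 and 1.26 ± 0.12 on the log2 scale in fractions 5, 6 and 7, and its value in fraction 4 was not called. Rpl4 had values of 0.49 ± 0.30, 0.36 ± 0.17, 0.59 ± 0.17 and 0.69 ± 0.11, of which only that of fraction 7 was called. Trp53 was not tested in fraction 4 and had values of -0.62 ± 0.24, -0.24 ± 0.19 and -0.23 ± 0.21 in fractions 5, 6 and 7, none called. The mRNA mt-Nd6 rose in fraction 6, by 1.18 ± 0.25, and its value over the class was -1.04 ± 0.44. Its mean in LPS fraction 4 was 420 CPM from 41 counts, against 12.9 to 22.5 CPM in LPS fractions 5 to 7.

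**Figure D4:**
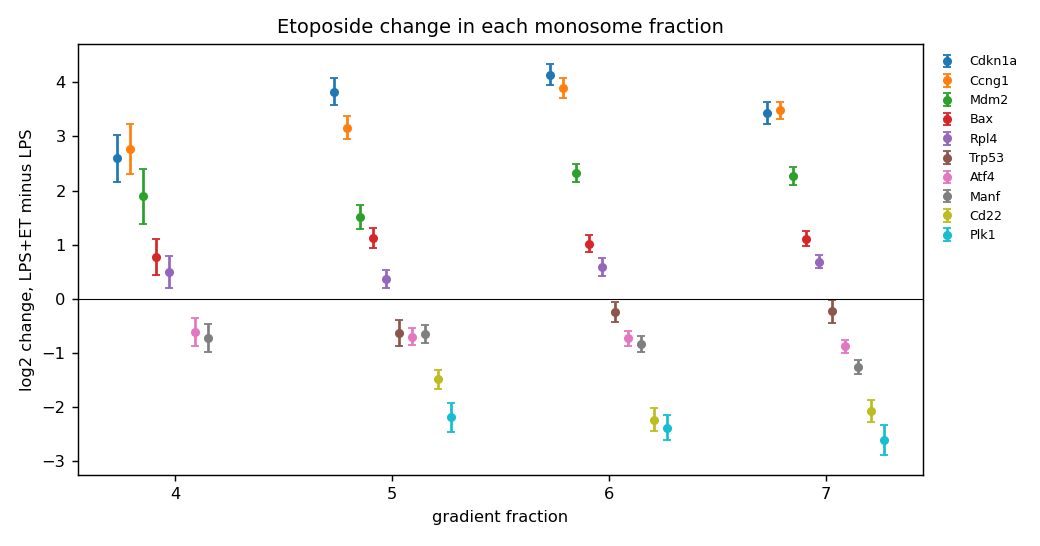
Log2 change of LPS+ET against LPS in each monosome fraction for 10 genes, from edgeR on the counts of that fraction. Points are the estimates from 4 pairs, bars are standard errors, and a gene without a point was not tested in that fraction. Cdkn1a and Ccng1 lie highest and Plk1 and Cd22 lowest in each fraction in which they were tested.

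The change in monosomes was then set against that in light polysomes (fractions 8 to 10, 24 libraries) of the same gradients. The difference of the changes was called for 147 of 8017 genes (1.83%), with the monosome change higher for 66 (0.823%) and lower for 81 (1.01%). In light polysomes themselves 24.9% of genes were called. The p53 targets Cdkn1a and Phlda3 rose in both classes and less so in monosomes. Cdkn1a changed by 3.02 in monosomes and 4.62 in light polysomes, a difference of -1.6 ± 0.24 (SE, limma adjusted p = 0.00078), and -0.94 without fraction 4. The difference of Phlda3 was -2.39 ± 0.36, and -1.24 without fraction 4. Both were called either way, and that of Cdkn1a was lost without tag LUL15 (adjusted p = 0.014). Of the 60 ribosomal protein mRNAs tested in both classes 5 had a called difference, with the monosome change higher for 4 and lower for 1. Rps20 had a mean of 63916 CPM in LPS and 79880 CPM in LPS+ET monosomes, and of 28410 and 18856 CPM in light polysomes. It rose in monosomes by 0.33 and fell in light polysomes by 0.60 on the log2 scale, a difference of 0.93 ± 0.06 (limma adjusted p = 4.7e-08) that was called without each tag in turn. Rpl22 did likewise with a difference of 1.02 ± 0.10. Mitochondrially encoded mRNAs had a lower change in monosomes than in light polysomes, with differences of -0.85 ± 0.08 for mt-Nd4, -0.85 ± 0.09 for mt-Cytb and -0.57 ± 0.10 for mt-Nd1, and 5 of 7 were called. Ier5 rose more in monosomes, with a difference of 1.08 ± 0.17.

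Without fraction 4, some of the largest differences from light polysomes were lost. Those of Plk2 and Cdc42bpg, a kinase, were -2.80 ± 0.54 and -2.69 ± 0.38, and -1.39 and -0.81 without that fraction. The same held for Gm10717, Gm21738 and mt-Nd6, at -3.31, -3.55 and -2.41. Gm10801 had -3.29 ± 0.28, and -1.35 without fraction 4, which was still called. In the other direction Tspyl3, the methyltransferase Mettl8 and the lysophosphatidic acid receptor Lpar6 had differences of 2.28 ± 0.39, 2.28 ± 0.40 and 1.94 ± 0.31, which were called without fraction 4 as well. Pseudogenes were called for 9.38% of those tested and protein-coding genes for 1.51%, and 20 of the 21 called pseudogenes had the higher change in monosomes. Gm12671 and Gm2574 were 2 of them, with differences of 1.81 ± 0.27 and 1.78 ± 0.35. All 31-base words of their annotated transcripts also occur in other genes, so their counts could belong to those copies.

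Against heavy polysomes (fractions 11 to 16, 48 libraries) the difference was called for 81 of 8009 genes (1.01%), with the monosome change higher for 49 (0.612%) and lower for 32 (0.4%). Some of these libraries were shallow. In the LPS+ET gradient of tag LUL16, fractions 11, 12, 15 and 16 held 33476 to 80915 counts. Fraction 12 of the LPS gradient of tag LUL17 held 32306, and fraction 16 of the LPS+ET gradient of tag LUL15 held 51226. In heavy polysomes themselves 11.5% of genes were called. These calls rested on few pairs: without tag LUL15 none was called, without LUL16 16, without LUL18 10 and without LUL17 159. At an unadjusted p under 0.05 with all 4 pairs limma counted 1725 genes. Of 6 tested immunoglobulin genes 3 had a called difference, each with the lower change in monosomes, while Ighg2b and Ighg3 did not pass (limma adjusted p = 0.15 and 0.011). Igkc changed by -0.48 in monosomes and had a value of 0.16 in heavy polysomes, a difference of -0.64 ± 0.11 (SE, limma adjusted p = 0.0063). The differences of Ighm and Iglc2 were -1.01 ± 0.17 and -0.99 ± 0.15, and Ighm rose in heavy polysomes by 0.59. Syvn1 had a difference of -1.24 ± 0.22. Ldha rose by 1.46 in monosomes and had a value of -0.48 in heavy polysomes, a difference of 1.93 ± 0.23 (limma adjusted p = 0.00093), and Aldoa had a difference of 1.16 ± 0.19. Rpl4, Ier5 and 2410089E03Rik also had the higher change in monosomes, with differences of 0.86 ± 0.13, 1.17 ± 0.18 and 2.32 ± 0.37. The pseudogenes Gm12671 and Gm3222, Tspyl3 and the sulfotransferase Ndst3, whose most used 3′ end lies in an intron, had differences of 2.70 ± 0.32, 2.42 ± 0.29, 2.24 ± 0.39 and 2.81 ± 0.44. Plk2, Cdc42bpg, mt-Nd6, Gm10717 and Rasa2 had the largest differences in the other direction, -2.76, -2.80, -2.89, -4.84 and -2.61, and none of these 5 was called without fraction 4. Rasa2 stood at 240 CPM in the LPS gradient of tag LUL17 and at 8.23 to 24.6 CPM in the other LPS gradients.

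Trp53 had 379 ± 107 CPM (SD, n = 4) in LPS and 512 ± 51.3 CPM in LPS+ET heavy polysomes, a value of 0.47 that was not called (limma adjusted p = 0.036). The difference from the monosome value was -1.13 ± 0.24 (SE, limma adjusted p = 0.017) and had the same sign in 4 of 4 pairs. It did not pass at 0.01 with all 4 fractions and passed without fraction 4, at -0.79 (adjusted p = 0.0062). The difference from light polysomes was -0.84 ± 0.20 (adjusted p = 0.021), and -0.50 without fraction 4 (adjusted p = 0.032). For Cdkn1a the difference from heavy polysomes was -1.5 ± 0.37 (adjusted p = 0.049), and -0.84 without fraction 4, which passed. Atf4 had differences of 0.09 ± 0.23 and 0.35 ± 0.11 from heavy and light polysomes, and neither was called.

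**Figure D5:**
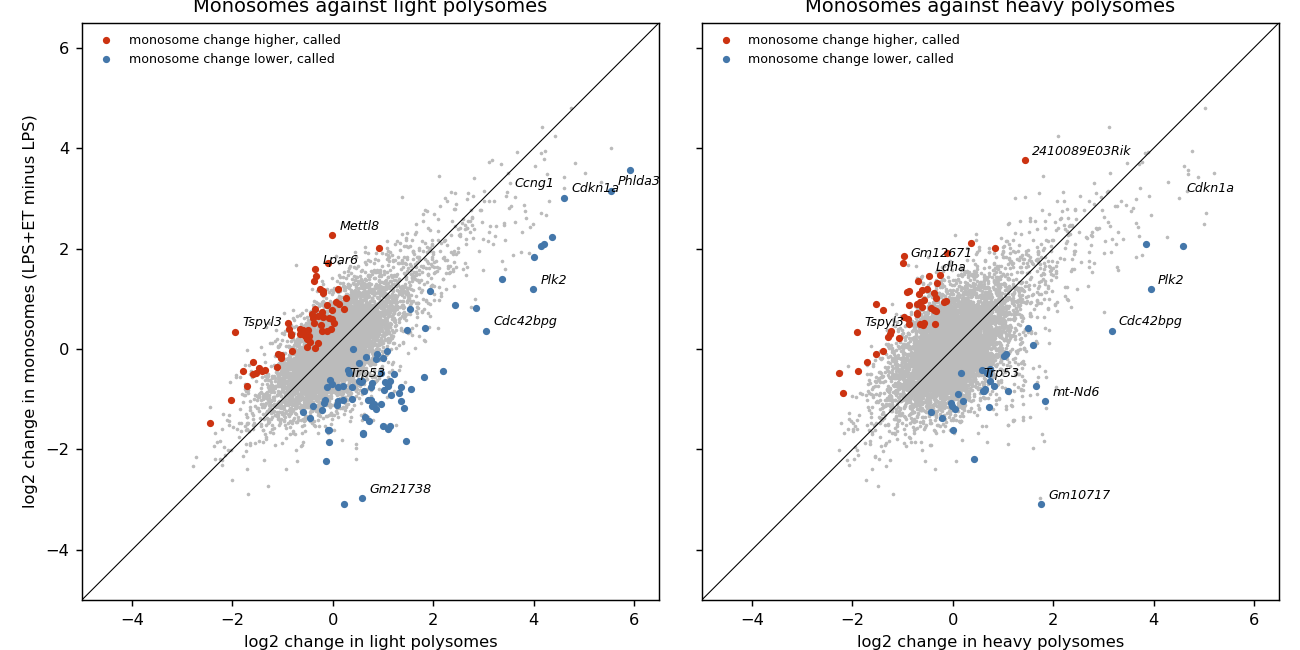
Log2 change of LPS+ET against LPS in monosomes (y axis) against that in light polysomes (left) and heavy polysomes (right). Each point is a gene, the line marks equal changes, and coloured points are genes with a called difference, 147 on the left and 81 on the right. Cdkn1a lies to the right of the line in both panels.

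Other mRNAs followed by the study were not called in monosomes. Tia1 and Tial1, which encode related RNA-binding proteins of stress granules, had 20.1 to 36.5 CPM and 25.9 to 42.4 CPM in LPS and 17.3 to 26.2 CPM and 21.2 to 44.3 CPM in LPS+ET. Their values were -0.57 ± 0.28 and -0.11 ± 0.24. H2-K1, a class I MHC gene, had a value of 0.03 ± 0.15, Ccnd2, cyclin D2, of 0.13 ± 0.19 and Pabpc1, the cytoplasmic poly(A)-binding protein, of 0.22 ± 0.13. Gadd45a, a p53 target that inhibits growth, did not pass the filter, so its change was not tested. It had 5 to 19 counts in the LPS gradients and 3 to 12 in LPS+ET. In CPM these were 2.82 to 6.06 and 1.28 to 10.4. Ddit4l, another stress-induced inhibitor of mTORC1, was named after its values were seen. It had no count in the LPS gradients and 8 to 22 in LPS+ET, and it missed the filter as well.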

How the data were processed

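Cytoplasmic extracts were separated on sucrose gradients and the RNA of each fraction was sequenced from its 3′ end. The deposited values are raw counts of poly(A) sites per gene, which the authors made after removing duplicate reads by random bases, trimming A tracts, aligning to GRCm38 and using Ensembl genes. The submitters' processing notes name TopHat2 2.0.12, HTSeq and DESeq2 1.6.3. Of the 32 columns used, 16 could be matched to a group and tag but not to 1 sample. Site positions were taken as counted from 0 and printed from 1.

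Each library was scaled to CPM, and fractions 4 to 7 were averaged per gradient. Genes with at least 10 summed counts in at least 4 of 8 gradients were tested with limma 3.58.1 (trend and robust variance, statmod 1.5.0, R 4.3.3) on log2(CPM + 1), with the tag as a block and a Benjamini-Hochberg adjusted p under 0.01 as a call. Values after ± are standard errors unless stated. Fold changes on this scale understate changes of low genes. Differences between classes were tested on the within-gradient difference of log2 values. edgeR 4.0.16 (quasi-likelihood) and DESeq2 1.42.0 were run on summed counts, and edgeR on single fractions. The fits were tested on simulated data. Deviations of gradients with the same tag correlated at r 0.210 to 0.508 (4 pairs) and of those with different tags at -0.469 to 0.209 (12 pairs, median -0.158), and the tag was kept as a block.

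Named genes were the mRNAs the study followed, the 10 largest rises and falls, up to 6 called and 3 uncalled members per list, and up to 5 genes each way per class difference, with exceptions stated. Members and lists were chosen with earlier results of these data known. Promoters came from RefSeq, and 3′ ends were annotated with GENCODE M21. Intervals for counts cover counting error only. Alternatives were other tools, scalings, filters, pseudocounts, fractions, thresholds and leaving out each tag. Results for some genes are not reported here, although counts over lists include them.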

Additional observations from a re-analysis of the deposited data

Results flagged for a closer look

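Of 242 groups of 4 gradients, 17 had a gradient far from the other 3 by Dixon's criterion, and chance alone gives about 1 in 20 groups. In the LPS gradient of tag LUL15, Hif1a stood at 160.1 CPM against 66.6 to 82.1 CPM, Fas stood at 21.9 CPM against 4.69 to 6.8 CPM and 2410089E03Rik stood at 15.2 CPM against 4.4 to 6.11 CPM. In the LPS gradient of tag LUL17, Polk stood at 16.3 CPM against 3.77 to 5.6 CPM, Ccne1 stood at 32 CPM against 48.2 to 51.1 CPM, Syvn1 stood at 76.4 CPM against 139 to 147 CPM and Rasa2 stood at 240.1 CPM against 8.23 to 24.6 CPM. In the LPS gradient of tag LUL18, Tnfrsf10b stood at 20.0 CPM against 3.78 to 4.34 CPM, Mdm2 stood at 120.0 CPM against 77.0 to 79.1 CPM, Rps3 stood at 7475 CPM against 8002 to 8107 CPM, Cdh23 stood at 42.0 CPM against 2.66 to 9.17 CPM and Fam212b stood at 18.2 CPM against 1.52 to 3.9 CPM. In the LPS+ET gradient of tag LUL15, Mdm2 stood at 479.8 CPM against 297 to 307 CPM. In the LPS+ET gradient of tag LUL16, Trp53inp1 stood at 87.2 CPM against 125 to 127 CPM, Ldha stood at 330.0 CPM against 132 to 134 CPM and Aldoa stood at 3778 CPM against 1039 to 1475 CPM. In the LPS+ET gradient of tag LUL18, Tk1 stood at 4.77 CPM against 0 CPM.

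The log2 change in monosomes was higher than that in light polysomes, by a tested difference, for Rpl22 (1.02), Rps20 (0.93), Ier5 (1.08), Gm12671 (1.81), Tspyl3 (2.28), Mettl8 (2.28), Lpar6 (1.94) and Gm2574 (1.78). It was lower for Cdkn1a (-1.60), Phlda3 (-2.39), mt-Nd1 (-0.57), mt-Nd4 (-0.85), mt-Cytb (-0.85), Gm10717 (-3.31), Gm21738 (-3.55), mt-Nd6 (-2.41), Cdc42bpg (-2.69), Plk2 (-2.80) and Gm10801 (-3.29). The log2 change in monosomes was higher than that in heavy polysomes, by a tested difference, for Rpl4 (0.86), Ier5 (1.17), Ldha (1.93), Aldoa (1.16), 2410089E03Rik (2.32), Ndst3 (2.81), Gm12671 (2.70), Gm3222 (2.42) and Tspyl3 (2.24). It was lower for Syvn1 (-1.24), Iglc2 (-0.99), Igkc (-0.64), Ighm (-1.01), Gm10717 (-4.84), mt-Nd6 (-2.89), Cdc42bpg (-2.80), Plk2 (-2.76) and Rasa2 (-2.61). Values in parentheses are the monosome change minus the polysome change.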

How the results depend on the processing

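The monosome comparison, with 653 calls, gave 2092 with edgeR and the replicate block, 1438 with DESeq2, 1109 with all 12 gradients in the fit, 1529 with TMM scaling, 1100 with the median of fractions, 2117 with CPM of summed counts, 1809 without fraction 4, 392 without fraction 7, 250 of 17139 genes with no filter on low counts, 1809 without libraries under 100000 counts and 1411 at an adjusted p under 0.05. Without the replicate block limma called 250 and edgeR 847. Leaving out a tag gave 210 (LUL15) to 465 calls. Single fractions tested without the replicate block gave 2, 184, 478 and 356 calls from fraction 4 to 7, and with a tag left out 6 to 45, 357 to 517, 508 to 1283 and 470 to 998. The difference from heavy polysomes, with 81 calls, gave 67 without the replicate block, 132 with CPM of summed counts, 397 without fraction 4, 415 at 0.05 and 0 (LUL15) to 159 (LUL17) with a tag left out. That from light polysomes, with 147, gave 60 without the replicate block, 648, 303 and 355 in the same order, and 55 to 68 with a tag left out. The cause of these shifts was not tested.

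The sign of the monosome value changed for 7 genes that were not called, and for 1 class difference. Tial1, at -0.11, was 0.070 with edgeR with the block, 0.072 with edgeR without it, 0.046 with DESeq2, 0.057 with fraction 4 left out and 0.045 with shallow libraries left out. mt-Nd6, at -1.04, was 0.79 with edgeR with the block, 0.83 with edgeR without it, 0.77 with DESeq2, 0.79 with the median of fractions, 0.69 with CPM of summed counts, 1.03 with fraction 4 left out and 0.97 with shallow libraries left out, and it was called higher by edgeR with the block, with CPM of summed counts and in the last 2 of these. Tspyl3, at 0.34, was -0.010 with DESeq2, -0.059 with CPM of summed counts, -0.43 with fraction 4 left out and -0.12 with shallow libraries left out. Gm10801, at -1.82, was 0.19 with the median of fractions and 0.11 with fraction 4 left out. It was called lower with TMM scaling (-1.34), with fraction 7 left out (-2.1) and without tag LUL16 (-2.3). It also passed at an adjusted p under 0.05. H2-K1, at 0.032, was -0.12 with fraction 7 left out. Leaving out a tag gave -0.18 to 0.21. Cdc42bpg, at 0.37, was -0.10 with fraction 7 left out. It was called higher by edgeR with the block (1.92), by edgeR without it (1.93) and by DESeq2 (1.92). The same held for the median of fractions (2.10) and CPM of summed counts (1.70). Leaving out fraction 4 (2.25) or shallow libraries (2.03) also gave a call. Ccnd2 was at 0.13. Leaving out a tag gave -0.037 to 0.30. Atf4, as a difference from heavy polysomes, was at 0.09. Leaving out a tag gave -0.12 to 0.42. Of the 98 named genes that were called, 42 were called under every alternative in which they were tested. Among the 42 are Fam212b, A930001C03Rik, Enc1, Mab21l2, 1700003M07Rik, Csrnp2, Slc4a11, Sdc1, Fos and Nr4a3. These passed the filter through LPS+ET alone and had to differ, so their repeated calls are a description. Of these 42, 13 were not tested with a mean of 50 or more counts (Gtse1, Bbc3, Fas, Aldh4a1, Sdc1, Fos, Nr4a3, A930001C03Rik, Enc1, Mab21l2, 1700003M07Rik, Csrnp2 and Slc4a11), nor Fos and Mab21l2 with fraction 4 left out. Those not called in at least 1 fit without a tag were Tnfrsf10b, Bid, Phlda3, Ephx1, Polk, Tmem19, Pif1, Prc1, Cdkn3, Tk1, Ccne1, Hist3h2a, Hist1h4i, Igtp, Cebpb, Ppp1r15a, Slc7a5, Syvn1, Pdia6, Rps3, Eef2, mt-Co1, Ighg2b, Ighg3, Iglc2, Igkc, Fcer2a, Nfkbid, Bcl3, Psmc3, Psmb8, Hmgcs1, Sc4mol, Srebf2, Aldoa, Gm10717, Gm21738, Bcar3, Adap1, Gm11998, Ndst3, Mettl8, Lpar6 and Gm2574. Of the 32 libraries 5 held under 100000 counts, which limits what low genes show.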

Other observations

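A non-coding RNA listed as RP23-81C12.1 (ENSMUSG00000097971, GRCm38 chr17:39843013-39846341, plus strand) was singled out after its values were seen. The most used 3′ end lies in an exon, 2793 bases from the nearest annotated transcript end, so the counts need not come from the end of the annotated RNA. RP23-81C12.1 is therefore given as a listed name only. It was at 156, 121, 329 and 328 CPM in the LPS gradients of tags LUL15 to LUL18 and at 3724, 489, 7213 and 7996 CPM in LPS+ET. The groups did not overlap, and the LPS+ET gradient of tag LUL16 was the lowest of its group. The log2 value was 3.91 ± 0.60 and was not called by limma (adjusted p = 0.034), while edgeR with the block called it (adjusted p = 7.8e-09). In fractions 4, 5, 6 and 7 alone edgeR gave changes of 3.82 ± 0.45, 3.97 ± 0.28, 4.00 ± 0.31 and 4.06 ± 0.26, each called. Its mean in LPS+ET was 12727 CPM in fraction 4 and 1350 CPM in fraction 7.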
